A study of Mus musculus with 18 samples.

Results

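The nuclear-encoded genes of oxidative phosphorylation were taken from the count table by symbol, as those starting with Nduf, Sdha to Sdhd, Uqcr, Cox4 to Cox8 or Atp5 and reaching a mean count of at least 10 over the 18 hearts. Of 23457 genes counted, 94 had such a symbol and 89 reached the mean count. By complex, 42 were counted with complex I, 6 with complex II, 8 with complex III, 17 with complex IV and 16 with complex V. The prefixes also took in genes whose products are not subunits, so that 77 of the 89 were subunits or subunit isoforms. The other 12 were 9 genes counted as assembly factors (7 Ndufaf genes, Sdhaf1 and Sdhaf2), and Cox7a2l, Atp5s and Atp5sl, counted as related genes. Atp5sl, listed as Dmac2 in the GENCODE annotation (M21), was placed with complex V for its symbol alone. The study asked how mouse heart responds to PLCβ1b, a phospholipase C splice variant raised in diseased heart muscle. Hearts came from male C57BL/6 mice that had received an adeno-associated virus (rAAV6) by tail vein and were examined at 17 weeks of age. In 1 group of 6 mice the virus carried FLAG-tagged PLCβ1b, in another FLAG-tagged PLCβ1a, the closely related splice variant that is inactive in heart, and in the last group, named blank, a promoter with no protein product. The virus acted on an otherwise unmodified heart, the sources used here do not name the promoter, and the sample labels name both ventricles as the tissue whereas the study's methods name the left ventricle.

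Oxidative phosphorylation passes electrons from NADH through complex I, or from succinate through complex II, to ubiquinone, then through complex III and cytochrome c to complex IV, where oxygen is reduced. Complexes I, III and IV pump protons across the inner mitochondrial membrane, and complex V uses the resulting gradient to make ATP. Most subunits are encoded in the nucleus and a minority in mitochondrial DNA, and the beating heart, which draws most of its ATP from this route, contains them in abundance.

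Counts per heart ranged from 13246339 to 24155465, of which 60.0% to 64.5% lay on the mitochondrial ribosomal RNAs. Nuclear genes kept 3908354 to 7591558 counts per heart, and the 89 genes 142484 to 281517. Plcb1, the gene that both vectors express, was lowest in blank hearts, at a mean of 0.986 ± 0.113 FPKM (SD of 6 hearts). It reached 3.86 ± 0.738 FPKM with PLCβ1a and 8.28 ± 3.38 FPKM with PLCβ1b, and in CPM (counts scaled to a common depth) the blank hearts lay below all others. The 6 cardiomyocyte markers examined (Myh6, Tnnt2, Tnni3, Actc1, Myl2 and Ryr2) were all expressed, with a summed level of 17190 to 19208 CPM over the 18 hearts and none called in any comparison. Of 5 skeletal muscle markers only Ckm, which heart also expresses, passed the filter on low counts. These are whole-tissue samples, in which fewer cells of a type and less RNA per cell cannot be told apart.

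Oxidative phosphorylation genes were among the most abundant of the heart. They took 3.65% to 3.96% of the nuclear counts of a heart, and 7.51% to 11.02% of the nuclear FPKM (a level per kilobase of exon, scaled to the depth of the heart), a scale on which their short transcripts weigh more. Of the 100 nuclear genes with the highest mean FPKM in blank hearts, 32 were members. Levels of single genes spanned a wide range, from 3.10 FPKM for the assembly factor Ndufaf5 to 982 FPKM for Cox7a1. Subunits of the assembled complexes were far more abundant than assembly factors. The 28 accessory subunits of complex I had a median of 120 FPKM in blank hearts and its 7 catalytic core subunits 141 FPKM, whereas its 7 assembly factors had 8.65 FPKM.

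**Figure D1:**
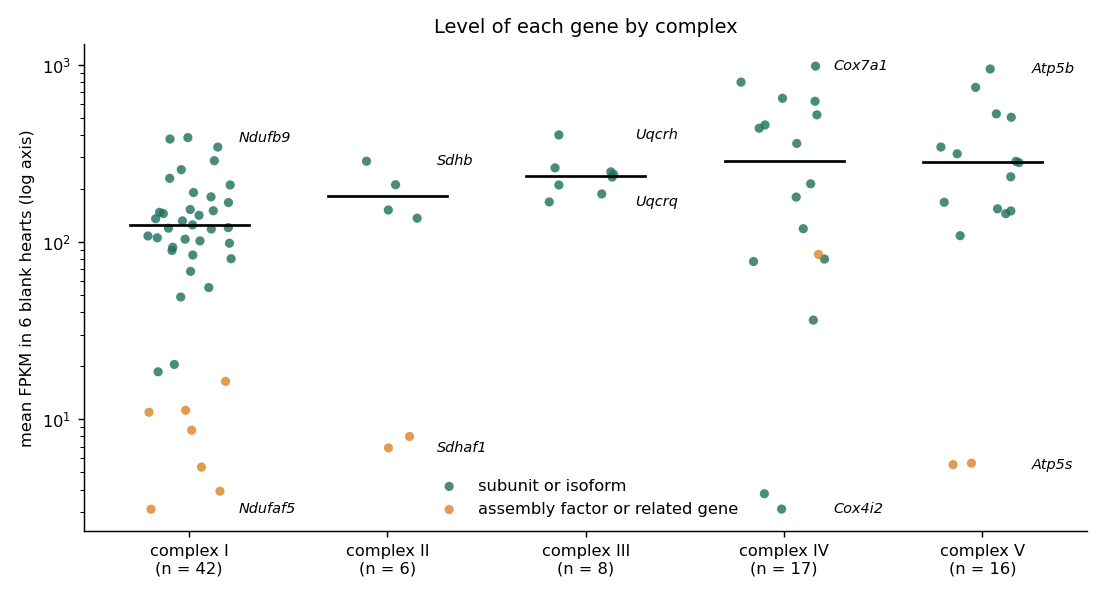
Mean FPKM in the 6 blank hearts (log axis) of each of the 89 genes, by complex. Each point is 1 gene, green for subunits and isoforms and orange for assembly factors and related genes, and the black line is the median of the green points. The orange points, apart from Cox7a2l at 84.9 FPKM, lie below all subunits other than Cox4i2, at 3.10 FPKM, and Ndufa4l2, at 3.79 FPKM.

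By FPKM, complexes I, II and III kept a constant order of transcript level, below complexes IV and V. With assembly factors and related genes left out, the median subunit of complex I was at 118 to 137 FPKM across the 6 blank hearts, that of complex II at 169 to 195 FPKM and that of complex III at 205 to 254 FPKM. The median of complex IV lay at 257 to 312 FPKM and that of complex V at 250 to 317 FPKM. Within each of the 18 hearts, whatever the vector, complex I was below complex II, complex II below complex III, and complex III below both complex IV and complex V. Complexes IV and V did not keep an order, complex IV being the lower in 9 of the 18 hearts. These orders are descriptions of FPKM values and were not tested.

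In complex I, which oxidises NADH, Ndufb9 and Ndufb8, both accessory subunits of the membrane arm, were the highest, at 388 ± 19.5 and 381 ± 19.5 FPKM (SD, n = 6 blank hearts). In complex II the iron-sulphur subunit Sdhb stood at 285 ± 11.3 FPKM and the flavoprotein subunit Sdha at 210 ± 8.16 FPKM. The lowest member counted with complex II was the assembly factor Sdhaf1 at 6.87 ± 1.4004 FPKM. Complex III ran from 168 ± 22.8 FPKM for Uqcrq to 402 ± 31.4 FPKM for Uqcrh, with Uqcr10 the second highest at 262 ± 24.1 FPKM. In complex IV, cytochrome c oxidase, Cox7a1 at 982 ± 62.2 FPKM and Cox4i1 at 798 ± 53.5 FPKM led. In complex V, the ATP synthase, subunits of the F1 head led, Atp5b at 946 ± 52.8 FPKM and Atp5a1 at 745 ± 41.0 FPKM, and Atp5s, a related gene, was lowest at 5.53 ± 0.558 FPKM.

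Hearts differed little in most of these genes. The standard deviation of log2 CPM between the 6 blank hearts had a median of 0.077 over the 89 genes and of 0.15 over all 12281 genes tested, and the medians were 0.077 with PLCβ1a and 0.074 in PLCβ1b hearts. The 89 include many of the most abundant genes, and genes of like count were not compared. In blank hearts, 64 of the 89 genes varied by an SD under 0.1. The steadiest was Uqcrc2, a core protein of complex III, which lay between 297 and 311 CPM in blank hearts, with a median of 303 CPM. Atp5j2, a membrane subunit of ATP synthase, lay between 114 and 119 CPM. At the other end, 7 genes had an SD above 0.2 in blank hearts, namely Ndufab1, Ndufb4, Ndufaf6, Sdhaf1, Ndufa4l2, Atp5s and Atp5l.

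Ndufab1, the mitochondrial acyl carrier protein, was the least steady, with an SD of 0.68 between blank hearts. Blank hearts 26 and 30 were at 3.29 and 4.62 CPM (44 and 80 counts), and the other 4 blank hearts between 8.80 and 10.2 CPM. No PLCβ1a heart was below 6.84 CPM and no PLCβ1b heart below 5.85 CPM, so these blank hearts were the lowest of the 18. FPKM showed them low too, at 9.31 and 11.8 FPKM against 21.9 to 31.2 FPKM in the other blank hearts. The SD stayed at 0.68 after values were corrected for length and GC content. In this gene's transcript, 65.0% of the windows of 76 bases, the length of a read, occur with at most 2 mismatches in GENCODE transcripts (M21) of other genes, all of them among 3 models that include the pseudogene Ndufab1-ps, and what this did to the counts was not tested. No difference between groups was detected in Ndufab1. PLCβ1b and blank hearts differed by 0.093 on the log2 scale (SE 0.23, edgeR's quasi-likelihood test with Benjamini-Hochberg adjustment, FDR = 0.95).

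For a few members the counts were far below the level that FPKM gave. Counts per kilobase were set against FPKM as a percent of the ratio of the typical gene. The 54 genes with no shared window had a median of 84.9%, and 1 of them, Ndufv3 (22.4%), was under 50%. The medians were 92.9% over 12 genes with under 10% shared windows and 81.8% over 13 genes with 10% to 40%, the latter from 31.3% for Ndufb4 to 138% for Ndufc1. The 10 genes with at least 40% had a median of 58.1% and the widest range, from 2.28% for Atp5l to 163% for Atp5h, and 3 of them were under 50%. Sharing and the gap between the scales did therefore not go together in every gene. Atp5l, the g subunit of ATP synthase, had a mean count of 29.2 over the 18 hearts, just above the minimum, but 167 ± 7.77 FPKM in blank hearts. Of its windows, 67.4% were shared with 16 other gene models. The stretch of 76 bases shown here, bases 142 to 217 of its coding sequence (gene at chr9:44912557-44920742 on the minus strand), is shared without a mismatch by the processed pseudogene Atp5l-ps1 on chromosome 7. No base is in capitals, since capitals would mark mismatches.
Atp5l and Atp5l-ps1: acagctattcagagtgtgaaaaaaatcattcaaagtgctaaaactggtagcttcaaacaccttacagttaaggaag

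The genes that fell under the minimum count were Ndufs5, Cox6b2, Cox7b2, Cox8c and Atp5g2. Atp5g2, just below it with a mean count of 6, was at 55.6 ± 4.38 FPKM in blank hearts, and 44.5% of its windows were shared. Cox6b2, known as a testis isoform, was low on both scales, at 0.649 ± 0.385 FPKM. Ndufs5, a subunit of complex I, had 1 count in the 18 hearts together. In the annotation deposited with the counts (mm10), the model BC002163 lies on chromosome 16 and also repeats the 3 exons of Ndufs5 on chromosome 4, on the same strand, the outermost one shorter at its 5′ end. BC002163 held 239 to 494 counts in every heart and averaged 92.3 ± 7.24 FPKM in blank hearts, where Ndufs5 was listed near 0. In PLCβ1a hearts FPKM gave Ndufs5 1.71 ± 1.32. The first 76 bases of the coding sequence of Ndufs5 (chr4:123712710-123718202, minus strand, GENCODE transcript) are identical in BC002163.
Ndufs5 and BC002163: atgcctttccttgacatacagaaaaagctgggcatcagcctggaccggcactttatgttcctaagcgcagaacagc
BC002163 differed between PLCβ1b and blank hearts by 0.0050 on the log2 scale (SE 0.059, FDR = 0.99, edgeR's quasi-likelihood test with Benjamini-Hochberg adjustment). Whether its counts came from chromosome 4 or chromosome 16 was not tested, so this is not a value for Ndufs5. For genes with shared windows, how the counting treated reads that match several places was not tested, and their levels are less certain.

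In PLCβ1b hearts most oxidative phosphorylation genes were close to their level in blank hearts. None of the 89 was called at a false discovery rate (FDR) below 0.1 by edgeR's quasi-likelihood test, with Benjamini-Hochberg adjustment over all genes tested, and 0.0977% of the 12281 genes were called in that comparison. At an unadjusted p under 0.05 there were 7 of 89 genes, where 7.41% of all genes met the same limit. All 7 were lower in PLCβ1b hearts, beside 3.47% of all genes lower and 3.94% higher. DESeq2 also called none. The median log2 fold change of the 89 genes was -0.021, beside -0.001 over all genes tested, and 59 of them were below 0, beside 50.4% of all genes. By complex the medians were -0.018, -0.021, -0.023, -0.025 and -0.032 for complexes I to V. The 95% confidence interval lay within 0.2 log2 units of 0 for 72 of the 89 genes, beside 30.8% of all genes. For these 72 a change of more than about 0.2 on this scale in either direction was outside the interval. The share over all genes, here and below, takes in genes of any count, and genes of like count were not compared.

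**Figure D2:**
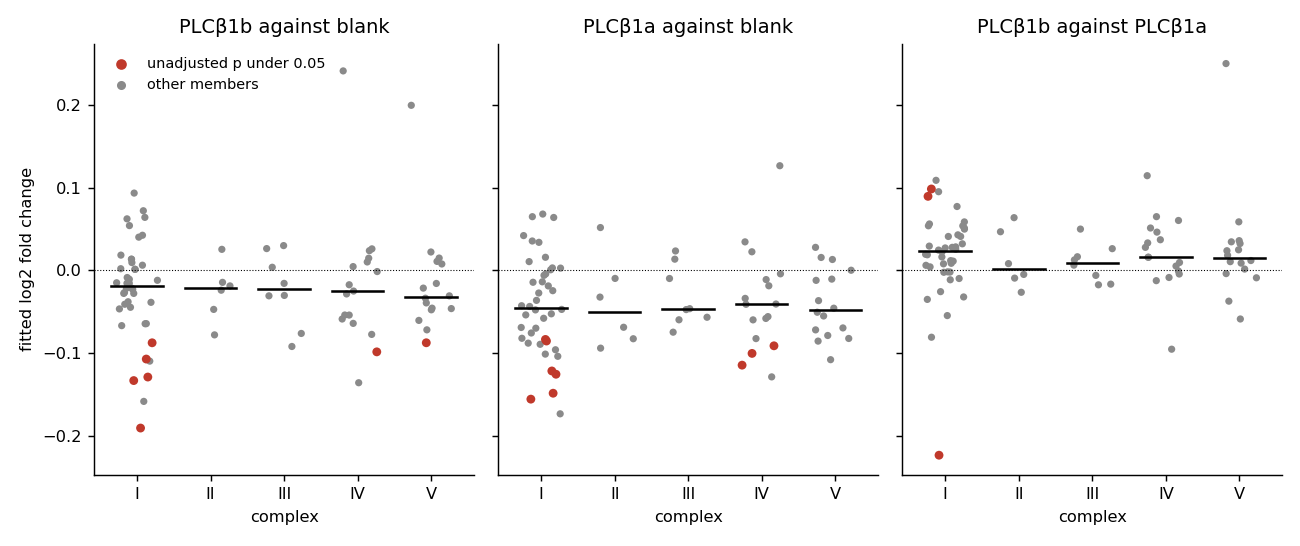
Fitted log2 fold change of each of the 89 genes by complex, for PLCβ1b against blank, PLCβ1a against blank and PLCβ1b against PLCβ1a hearts. Red points have an unadjusted p under 0.05, grey points do not, and black lines are medians by complex, which lie between -0.032 and -0.018 in the first panel, -0.050 and -0.041 in the second and 0.0018 and 0.024 in the third.

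The inactive variant, PLCβ1a, also gave no call. Between PLCβ1a and blank hearts no member was called, with 0.138% of all genes called, and 9 of 89 had an unadjusted p under 0.05, beside 8.58% of all genes. All 9 were lower, beside 4.16% of all genes lower and 4.42% higher. The median log2 fold change was -0.046, beside -0.002 over all genes, and 68 of 89 genes were below 0, beside 50.6% of all genes. Both comparisons use the same 6 blank hearts, so the same direction in both is not independent. Between PLCβ1b and PLCβ1a hearts no member was called and no gene at all (0.0%), 3 members had an unadjusted p under 0.05, beside 4.42% of all genes. Of these, 2 were higher and 1 lower, beside 2.24% and 2.18% of all genes. The median was 0.017, and 26 members were below 0, beside 49.5% of all genes. DESeq2 called no member in either comparison. The interval lay within 0.2 log2 units of 0 for 69 members in PLCβ1a against blank (29.9% of all genes) and for 75 in PLCβ1b against PLCβ1a hearts (33.4%).

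The median below 0 differed by gene length, more in PLCβ1a than in PLCβ1b hearts against blank. The 89 genes are short, with a median of 754 exonic bases against 2985 over all genes tested, and 56 of them have under 1000. In each heart the deviation of every gene from its mean in blank hearts was taken on the log2 scale. The median deviation of the 89 genes ran from -0.039 to 0.034 in blank hearts, from -0.082 to 0.016 with PLCβ1a and from -0.075 to 0.031 in PLCβ1b hearts, and the 3 groups overlapped. The 762 other tested genes with under 1000 exonic bases ran from -0.047 to 0.045, from -0.070 to 0.015 and from -0.049 to 0.014 in the same groups. Their median fitted log2 fold changes were -0.052 in PLCβ1a and -0.032 in PLCβ1b hearts against blank, where the 56 members of that length had -0.052 and -0.024. Members with 1000 or more exonic bases (33 genes) had medians of -0.019 and -0.016. In both comparisons 63.6% of these 33 were below 0, beside 83.9% and 67.9% of the 56 shorter members. Over all genes the shares were 50.6% and 50.4%. With a correction for gene length in each heart, the members' medians became -0.0011 in PLCβ1a and -0.0030 in PLCβ1b hearts against blank. That correction takes out any shift that genes of like length share, whatever its source. What sets the difference between short and long genes was not tested.

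**Figure D3:**
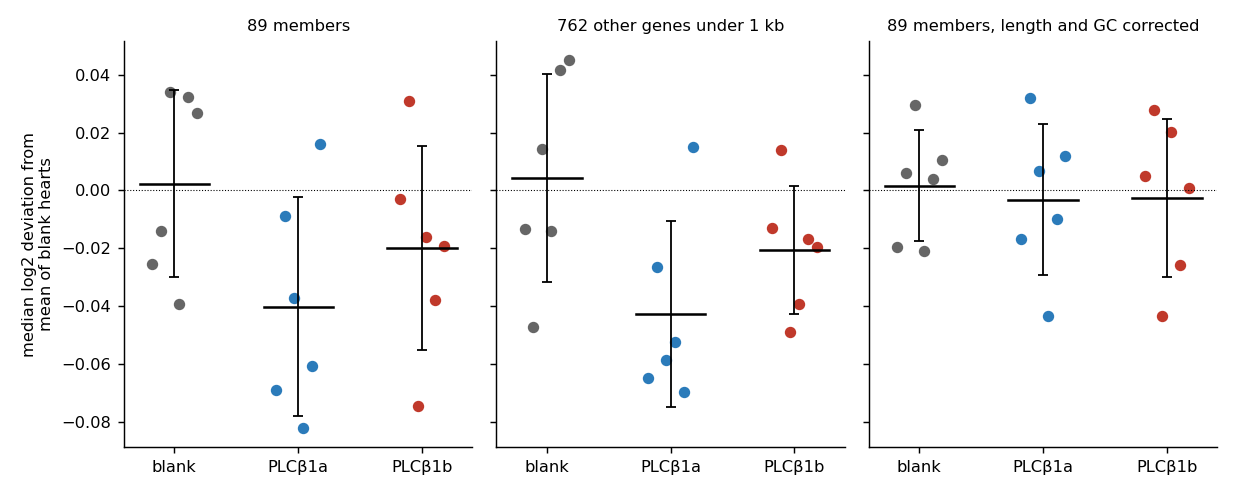
Median log2 deviation from the mean of the blank hearts, 1 point per heart, for the 89 members, for 762 other tested genes with under 1000 exonic bases, and for the 89 members corrected for length and GC content. Lines and bars are the mean and SD of 6 hearts, and the PLCβ1a mean of -0.040 in the first panel and -0.043 in the second becomes -0.0033 in the third.

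The 7 catalytic core subunits of complex I had log2 fold changes of -0.041 to 0.019 in PLCβ1b and -0.088 to 0.0031 in PLCβ1a hearts against blank, with medians of -0.011 and -0.014. In PLCβ1b against blank, the interval lay within 0.2 log2 units of 0 for 33 of 42 members of complex I. The counts were 5 of 6 in complex II, 8 of 8 in III, 14 of 17 in IV and 12 of 16 in V. The share over all genes was 30.8%. Members with the lowest p among those higher in PLCβ1b hearts were Ndufa4l2, Ndufa9 and Ndufa10, none of which reached an unadjusted p of 0.05. Ndufa4l2, an isoform of the complex IV subunit Ndufa4, had 2.11, 2.70 and 3.36 CPM as the lowest, median and highest blank heart, 2.34, 2.96 and 3.42 CPM with PLCβ1a and 2.35, 3.29 and 3.48 CPM in PLCβ1b hearts. All 3 groups overlapped, and the log2 fold change of PLCβ1b against blank was 0.24 (95% interval -0.014 to 0.50). Ndufa9 and Ndufa10, accessory subunits of complex I, had log2 fold changes of 0.072 (SE 0.040) and 0.064 (SE 0.037), and Sdha, one of the 3 members with the lowest p among those higher in PLCβ1a against blank, had 0.052 (SE 0.036) there. Between PLCβ1b and PLCβ1a hearts, the members with the lowest p were Ndufc1 (0.098, SE 0.044), Ndufa6 (0.089, SE 0.041) and Atp5o (0.059, SE 0.038) among those higher, and Ndufaf2 (-0.22, SE 0.10), Ndufaf5 (-0.080, SE 0.074) and Atp5d (-0.037, SE 0.049) among those lower, all with an FDR of 1.0 by the same test.

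The gene with the lowest p was Ndufaf4, an assembly factor of complex I and no subunit of the finished complex. Blank hearts had 32.02, 33.5 and 36.1 CPM as lowest, median and highest, PLCβ1a hearts 27.2, 30.3 and 33.9 CPM, and PLCβ1b hearts 28.9, 29.6 and 31.6 CPM. All 6 PLCβ1b hearts lay below the lowest blank heart, and 4 of the 6 PLCβ1a hearts did. In PLCβ1b against blank, 0.212% of all genes were lower without overlap. The log2 fold change was -0.19 (SE 0.050) in PLCβ1b and -0.16 (SE 0.050) in PLCβ1a hearts against blank, with FDRs of 0.20 and 0.31, and the difference between PLCβ1b and PLCβ1a was -0.035 (SE 0.051, FDR = 1.0), all by edgeR's quasi-likelihood test. With both PLC groups against blank, Ndufaf4 fell by 0.17 on the log2 scale (SE 0.043) and was the only member called, at an FDR of 0.097, where 0.326% of all genes were called. In that comparison 13 members had an unadjusted p under 0.05, beside 9.25% of all genes, and all were lower, beside 4.63% of all genes in each direction. There 68 members were below 0, beside 50.7% of all genes, and 75 had an interval within 0.2 log2 units of 0, beside 38.9%. The call was lost when 1 heart was left out in 14 of 18 cases, all but those of blank heart 33, PLCβ1a hearts 7 and 14 and PLCβ1b heart 16, with an FDR of up to 0.32, reached without blank heart 34. It was also lost in 4 of 9 other settings, while the log2 fold change stayed between -0.20 and -0.15 throughout.

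Ndufaf4 (chr4:24898083-24905001, mm10, plus strand) has no window shared with other genes, and its counts per kilobase were 100.5% of its FPKM level. Its promoter holds the letters of the motif of NRF1, a transcription factor known to drive many respiratory chain genes. RefSeq promoters (GRCm38.p6) were found for 74 of the 89 genes, and the 250 bases before the start were searched on both strands for the consensus of NRF1, for that of ETS factors such as GABP (CCGGAAG), of ERR (TCAAGGTCA) and of YY1 (AAGATGGC), and for a TATA box (TATAAA). The NRF1 letters were in 12 of 74 member promoters (16.2%) and in 4.23% of the 27025 genes with a promoter. The ETS letters were in 18.9% of the members and 7.83% of all genes, ERR in 1.35% and 0.422%, YY1 in 2.70% and 1.83%, and the TATA box in 6.76% and 14.3%. A match is a description of the letters and not of binding. The shares over all genes include genes not expressed in heart, and promoters of like GC content were not compared. The Ndufaf4 stretch (chr4:24897833-24898082, plus strand) has its match in capitals.
Ndufaf4: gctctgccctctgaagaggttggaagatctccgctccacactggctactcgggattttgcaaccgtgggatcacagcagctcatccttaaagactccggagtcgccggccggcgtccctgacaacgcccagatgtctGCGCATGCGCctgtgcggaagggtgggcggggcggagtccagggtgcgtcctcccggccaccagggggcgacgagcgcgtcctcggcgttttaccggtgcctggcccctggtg

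After Ndufaf4, the members with the lowest p were Ndufc2 and Cox7a2l. Ndufc2, an accessory subunit of complex I, had 39.5, 44.3 and 49.5 CPM as lowest, median and highest blank heart, 37.1, 40.1 and 42.3 CPM with PLCβ1a and 38.4, 40.6 and 42.7 CPM in PLCβ1b hearts. Cox7a2l, counted here as a related gene and not as a subunit, had 45.5, 47.7 and 49.97 CPM in blank hearts. It had 41.4, 44.4 and 45.7 CPM with PLCβ1a and 42.4, 44.3 and 47.5 CPM in PLCβ1b hearts. In both genes the PLC groups overlapped with blank and with each other. The log2 fold changes against blank were -0.15 and -0.13 for Ndufc2 in PLCβ1a and PLCβ1b hearts and -0.11 and -0.098 for Cox7a2l, with FDRs between 0.34 and 0.60 by edgeR's quasi-likelihood test. Ndufaf1, another assembly factor, came next after Ndufc2 in PLCβ1b against blank, at -0.13 (SE 0.056, FDR = 0.60, same test). Without overlap, the only other member was Atp5j2, whose 6 PLCβ1a hearts (105 to 112 CPM) all lay below the lowest blank heart, where 0.285% of all genes did so. Its log2 fold change was -0.072 (95% interval -0.14 to 0.0011, FDR = 0.59, same test). No member was higher without overlap, beside 0.269% of all genes in PLCβ1b and 0.309% in PLCβ1a against blank. None was apart in either direction in PLCβ1b against PLCβ1a (0.0814% of genes higher, 0.0977% lower) or in both PLC groups against blank (0.0407% and 0.0244%).

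**Figure D4:**
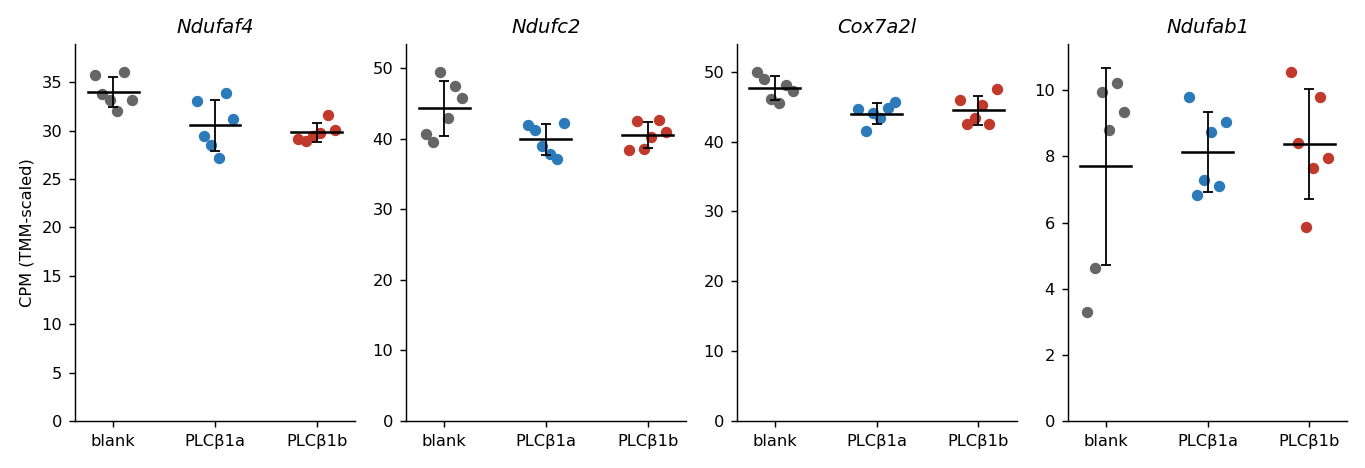
CPM after TMM scaling of Ndufaf4, Ndufc2, Cox7a2l and Ndufab1 in each heart, on axes from 0. Points are hearts, and lines and bars are the mean and SD of 6. All PLCβ1b hearts lie below all blank hearts in Ndufaf4, and blank hearts 26 and 30 lie below all others in Ndufab1.

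Several subunits of complex IV exist as pairs of isoforms, one found in most tissues and one in heart and skeletal muscle, and the pairs differ in how the enzyme is regulated. The muscle isoforms dominated. Per kilobase of exon, Cox6a2 exceeded Cox6a1 by 13.8 to 16.6 times in blank hearts, 13.5 to 18.7 times with PLCβ1a and 13.3 to 18.005 times in PLCβ1b hearts. Cox8b exceeded Cox8a by 5.06 to 6.55, 5.20 to 6.99 and 5.54 to 6.69 times in the same groups, and Cox7a1 exceeded Cox7a2 by 3.52 to 4.56, 3.84 to 4.35 and 3.65 to 4.61 times. Cox4i2, the isoform known from lung and from low oxygen, was a small fraction of Cox4i1, with a mean ratio of 0.0042 in blank hearts, 0.0041 with PLCβ1a and 0.0038 in PLCβ1b hearts. Cox4i2 was also the member closest above the minimum count, with a mean of 29.1. Cox6b1, the isoform of most tissues, was at 457 ± 34.1 FPKM in blank hearts, where its partner Cox6b2 did not reach the minimum count. FPKM gave the same order in each pair, with mean ratios in blank hearts of 17.3 for Cox6a2 over Cox6a1, 6.81 for Cox8b over Cox8a and 5.51 for Cox7a1 over Cox7a2.

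No ratio separated the vector groups. Each of 5 pairs was compared between groups in 3 ways by exact two-sided permutation tests on the log2 ratio, 15 in all. The smallest unadjusted p was 0.25, for Cox4i2/Cox4i1 in PLCβ1b against blank hearts, where the difference was -0.15. The other 14 differences lay between -0.091 and 0.073, and every adjusted p was 0.95. The hearts of the groups overlapped in every pair, and with 6 against 6 the smallest p such a test can give is 0.00216.

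**Figure D5:**
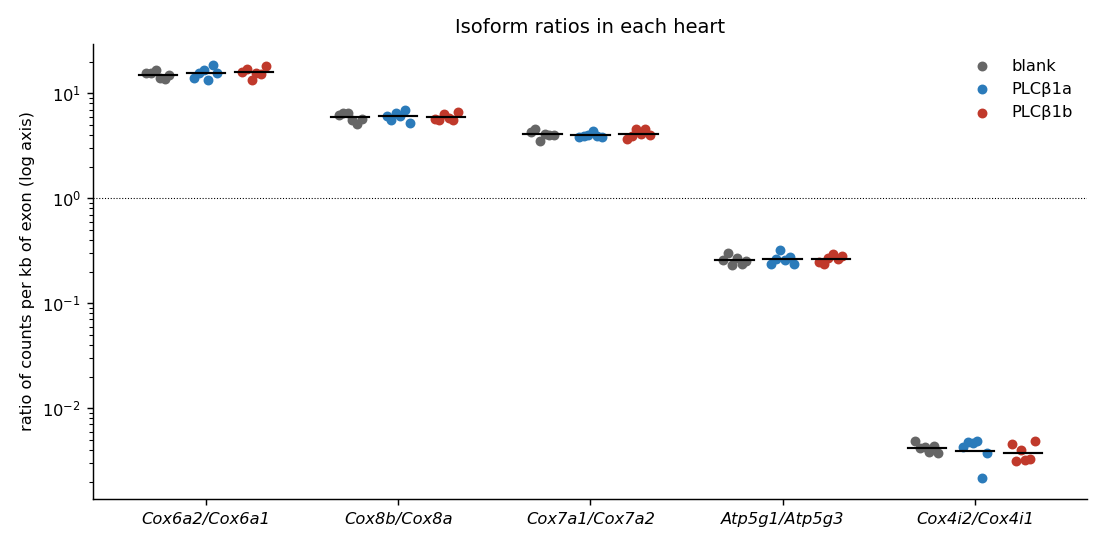
Ratio of counts per kilobase of exon (log axis) for 5 isoform pairs, 1 point per heart and a line at the geometric mean of each group. The dotted line marks equal levels. Cox6a2, Cox8b and Cox7a1 lie above their partners in all 18 hearts, Atp5g1 and Cox4i2 below, and the groups overlap in each pair.

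Promoters of an isoform of most tissues and of 2 muscle isoforms are given, since these genes carry the isoform pattern. In the promoter of Cox6a1, the isoform of most tissues (chr5:115348959-115349208, minus strand), NRF1 letters begin 162 and 117 bases before the start and ETS letters 16 bases before it, shown in capitals. None of the 5 motifs was found in the promoters of the muscle isoforms Cox7a1 (chr7:30183921-30184170, plus strand) and Cox8b (chr7:140900447-140900696, minus strand), or in those of their partners Cox7a2 and Cox8a. Cox6a2 was not matched.
Cox6a1: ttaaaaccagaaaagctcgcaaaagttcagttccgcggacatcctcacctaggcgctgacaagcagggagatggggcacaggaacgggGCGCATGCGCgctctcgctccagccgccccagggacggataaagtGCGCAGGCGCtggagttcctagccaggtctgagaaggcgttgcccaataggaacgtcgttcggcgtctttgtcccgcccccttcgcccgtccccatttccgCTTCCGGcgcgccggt
Cox7a1: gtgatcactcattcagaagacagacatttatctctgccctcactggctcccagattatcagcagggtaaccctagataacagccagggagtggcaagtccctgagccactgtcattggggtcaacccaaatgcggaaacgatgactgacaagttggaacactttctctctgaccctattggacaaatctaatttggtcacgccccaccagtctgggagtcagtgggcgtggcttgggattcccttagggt
Cox8b: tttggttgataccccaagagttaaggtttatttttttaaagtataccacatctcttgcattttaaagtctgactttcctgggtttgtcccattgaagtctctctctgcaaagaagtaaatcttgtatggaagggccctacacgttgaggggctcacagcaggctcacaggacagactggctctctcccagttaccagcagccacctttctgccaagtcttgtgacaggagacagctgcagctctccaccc

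The c subunit of ATP synthase, which forms the rotating ring in the membrane, is encoded by 3 genes. Atp5g1 stood at 285 ± 18.5 FPKM, Atp5g2 at 55.6 ± 4.38 FPKM and Atp5g3 at 528 ± 62.0 FPKM in blank hearts. The last 75 codons, which make up the mature protein, differ between the 3 genes at 57 of 225 bases, and none of these differences changes the encoded residue. Capitals mark the positions at which the 3 differ.
Atp5g1: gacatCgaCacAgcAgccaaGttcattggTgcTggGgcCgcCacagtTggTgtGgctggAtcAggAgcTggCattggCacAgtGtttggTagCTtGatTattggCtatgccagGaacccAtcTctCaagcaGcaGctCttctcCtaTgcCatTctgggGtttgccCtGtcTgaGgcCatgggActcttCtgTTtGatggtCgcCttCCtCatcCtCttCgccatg
Atp5g2: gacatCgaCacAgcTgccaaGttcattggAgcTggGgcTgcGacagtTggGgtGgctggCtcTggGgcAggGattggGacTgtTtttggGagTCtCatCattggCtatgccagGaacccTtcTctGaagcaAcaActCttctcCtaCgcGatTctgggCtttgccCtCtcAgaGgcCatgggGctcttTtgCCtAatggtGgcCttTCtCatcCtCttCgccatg
Atp5g3: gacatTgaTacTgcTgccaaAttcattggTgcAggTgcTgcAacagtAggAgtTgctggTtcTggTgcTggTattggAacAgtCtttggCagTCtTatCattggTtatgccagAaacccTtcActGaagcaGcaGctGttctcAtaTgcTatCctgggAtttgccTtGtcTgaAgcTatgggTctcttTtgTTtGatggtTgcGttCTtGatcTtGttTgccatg
The genes lie on chromosomes 11, 15 and 2. Atp5g1 was at 0.234 to 0.298 of the level of Atp5g3 per kilobase in blank hearts, 0.234 to 0.320 with PLCβ1a and 0.238 to 0.295 in PLCβ1b hearts. By FPKM the mean ratio in blank hearts was higher, at 0.544. The 2 scales differ for Atp5g1, of whose windows 54.5% were shared with other genes and whose counts gave 38.5% of its FPKM level, whereas Atp5g3 had no shared window and 81.4%. In PLCβ1b against blank hearts the log2 ratio differed by 0.041 with counts and by 0.037 with FPKM, and in PLCβ1a against blank by 0.035 and 0.068.

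Genes of related function outside the prefixes were counted alongside. None of the 6 lists held a called gene in any of the 4 comparisons. In PLCβ1b against blank, where 7.41% of all genes had an unadjusted p under 0.05 (3.94% higher, 3.47% lower), so did 2 of 11 mitochondrially encoded subunits tested, both higher. Their median was 0.22, and 1 of 11 was below 0, beside 50.4% of all genes. In PLCβ1a against blank their median was 0.066, and again 1 of 11 was below 0, beside 50.6% of all genes, with none at an unadjusted p under 0.05. These comparisons share the blank hearts, and the hearts of a group differed widely. The median deviation of the mitochondrially encoded subunits ran from -0.15 to 0.26 in blank hearts, from -0.15 to 0.33 with PLCβ1a and from 0.016 to 0.36 in PLCβ1b hearts. The one with the lowest p, mt-Cytb of complex III, had an FDR of 0.59 by edgeR's quasi-likelihood test. Of 33 assembly factors outside the prefixes, 3 had an unadjusted p under 0.05 in PLCβ1b against blank, 1 higher and 2 lower, and the lowest was that of Coa3, which acts in building complex IV (-0.24, SE 0.064, FDR = 0.20, same test). Of 18 transcriptional regulators, 4 had an unadjusted p under 0.05, 2 in each direction, and the lowest was that of Ppara, a nuclear receptor of fatty acid oxidation genes (-0.22, SE 0.068, FDR = 0.38, same test). Of 14 genes of general mitochondrial content, 3 did, all lower, led by the chaperone Hspd1 (-0.20, SE 0.052, FDR = 0.20, same test). The 5 subunits outside the prefixes and the 13 genes of coenzyme Q synthesis had medians of -0.023 and -0.029 in the same comparison. They had 1 and 2 genes with an unadjusted p under 0.05. Their medians in PLCβ1a against blank were -0.059 and -0.043. In PLCβ1a against blank, 5 of the 14 genes of mitochondrial content had an unadjusted p under 0.05, all lower. Of all genes 8.58% did, 4.16% lower. The medians of this list were -0.066 there and -0.028 in PLCβ1b against blank. The 33 assembly factors had medians of -0.077 and -0.035, with 29 and 23 below 0, beside 50.6% and 50.4% of all genes. The 18 regulators had -0.023 and -0.038.

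Markers of other cell types were read beside these values, and none was called in any comparison. The summed level of 5 fibroblast markers ran from 371 to 424 CPM in blank, 387 to 439 CPM in PLCβ1a and 398 to 444 CPM in PLCβ1b hearts, and that of 5 endothelial markers from 247 to 301, 254 to 280 and 254 to 294 CPM. In each of these lists 1 marker had an unadjusted p under 0.05 and was higher in both PLC groups. Of all genes 7.41% had such a p in PLCβ1b (3.94% higher) and 8.58% in PLCβ1a against blank (4.42% higher). Of the 5 endothelial markers 1 and 2 were below 0 in these comparisons, with medians of 0.030 and 0.022. Of the 5 fibroblast markers 0 and 1 were, with medians of 0.093 and 0.043. Over all genes 50.4% and 50.6% were below 0. Cdh5, an adhesion protein of endothelial cells, had log2 fold changes against blank of 0.14 (SE 0.049) with PLCβ1b and 0.11 (SE 0.049) with PLCβ1a. Col3a1, a collagen of fibroblasts, had 0.19 (SE 0.067) and 0.17 (SE 0.067). Of the 6 cardiomyocyte markers, the cardiac actin Actc1 was the one with an unadjusted p under 0.05, at -0.10 (SE 0.044) and -0.12 (SE 0.044). In PLCβ1b against blank 4 of the 6 were below 0, with a median of -0.031. In PLCβ1a against blank 2 of the 6 were, with a median of 0.0083. Summed levels of 4 macrophage markers were 50.6 to 63.4, 50.9 to 63.4 and 50.3 to 68.6 CPM in the 3 groups, and those of 4 atrial markers 36.7 to 53.5, 24.2 to 61.0 and 31.6 to 48.7 CPM. In PLCβ1b against blank all 4 atrial markers were below 0, beside 50.4% of all genes. Their median was -0.36, and none had an unadjusted p under 0.05. In PLCβ1a against blank 1 of the 4 was below 0, with a median of 0.024. Between PLCβ1b and PLCβ1a hearts 3 of the 4 were below 0. There Sln (-0.89) had an unadjusted p under 0.05, beside 4.42% of all genes. Of the erythrocyte markers in the count table, 4 globin genes had no count in any heart and Alas2, the erythroid enzyme of haem synthesis, was tested. Hbb-bs and Hbb-bt were absent from the count table. Whether the counting missed globin reads was not tested, so no globin level is read from these genes. Alas2 had log2 fold changes of 0.63 (SE 0.20, FDR = 0.36) in PLCβ1a and 0.22 (SE 0.21, FDR = 0.86) in PLCβ1b against blank by edgeR's quasi-likelihood test, and the erythrocyte list summed to 5.35 to 10.6, 9.13 to 15.6 and 6.20 to 13.3 CPM. Of 3 brown fat markers, Cidea passed the filter on low counts, with a log2 fold change of 0.13 (SE 0.092) in PLCβ1b against blank, and Ucp1 and Elovl3 did not. The list summed to 4.78 to 7.67 CPM over the 18 hearts. None of 4 markers of white fat passed the filter. The part of cell composition in the small shifts of the members was not tested.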

How the data were processed

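RNA from 18 hearts, 6 per vector group, was sequenced after ribosomal RNA depletion in stranded libraries. The authors aligned reads to mm10 with TopHat (the submitters' processing notes name TopHat2 2.0.10). They counted reads per gene with HTSeq in its union mode and in a strand-specific way. The deposited counts are not normalised. The deposited FPKM values are scaled to transcript length and depth, and the notes name Cufflinks 2.1 without its role. Groups and mouse numbers came from the sample labels.

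Counts were tested with edgeR 4.0.16 (TMM scaling, quasi-likelihood F-test with robust shrinkage) in R 4.3.3, in one model of the 3 groups, after filterByExpr with a minimum count of 10, leaving 12281 genes. Benjamini-Hochberg adjustment ran over all of these and genes were called at an FDR below 0.1. CPM are TMM-scaled, and log2 CPM used a prior count of 2. Whether mice of a group shared a litter or day is not given in the sources used here, so p-values measure the spread between these mice. In data simulated for PLCβ1b against blank, 200 of 12281 genes were changed. The test recovered 96% of 2-fold and 63% of 1.3-fold changes, and 10.7% of calls were false. Changes as small as those of the members (log2 fold changes of -0.19 to 0.24 in this comparison) were not simulated.

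The members and gene lists were chosen with earlier results of these data known. Named members were those called, the 3 with the lowest p in each direction of each comparison between single groups, the 2 highest and the lowest FPKM of each complex, isoform pairs, the widest and narrowest spread, and genes next to the minimum count. Ndufv3, Ndufb4, Cox7c, Atp5h, BC002163, Ndufaf6 and genes of the related and marker lists were named after their values were seen. Alternatives were DESeq2 1.42.0, upper-quartile scaling, no filter, only the groups compared, mitochondrial genes left out, limma 3.58.1 on log2(FPKM + 0.1) and log2(FPKM + 1), a length correction, an FDR below 0.05, subunits only and each heart left out. The added GC correction, edgeR's exact test and the fit without robust shrinkage were chosen after seeing the data.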

Additional observations from a re-analysis of the deposited data

Results flagged for a closer look

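Among 150 sets of 6 hearts examined, 7 held 1 heart whose gap to the nearest other heart was large for the range of its group, a limit that chance passes in about 1 of 20 such sets. Atp5j2 was at 118.5 CPM in blank heart 34, where the other blank hearts had 113.7 to 115.4 CPM. Cox4i1 was at 383 CPM in PLCβ1b heart 6, above 348 to 360 CPM in the others. Cox4i2 was at 0.799 CPM in PLCβ1a heart 14, below 1.49 to 1.89 CPM. Ndufa4l2 was at 2.35 CPM in PLCβ1b heart 8, below 3.14 to 3.48 CPM. Uqcrh was at 128 CPM in PLCβ1b heart 16, below 143 to 150.3 CPM. The Cox7a1/Cox7a2 ratio was 4.35 in PLCβ1a heart 13, above 3.84 to 4.03. The median log2 deviation of complex II was 0.036 in PLCβ1a heart 21, where the other PLCβ1a hearts had -0.061 to -0.035.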

How the results depend on the processing

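No member was called in PLCβ1b against blank, PLCβ1a against blank or PLCβ1b against PLCβ1a hearts under any alternative run. With both PLC groups against blank, the 1 member called, Ndufaf4, became 0 members with mitochondrially encoded genes left out, with limma on log2(FPKM + 0.1) or log2(FPKM + 1), without robust shrinkage, at an FDR below 0.05 and with subunits only, and 0 to 1 when 1 heart was left out. The median log2 fold change of PLCβ1a against blank moved from -0.046 to -0.0011 with the length correction and to 0.00022 with GC content added, and that of PLCβ1b against PLCβ1a from 0.017 to -0.0015 with both corrections. With 1 heart left out, the medians ran from -0.035 to -0.0095 in PLCβ1b against blank, -0.062 to -0.033 in PLCβ1a against blank, 0.0086 to 0.030 in PLCβ1b against PLCβ1a and -0.044 to -0.024 in both PLC groups against blank. No isoform ratio was called with FPKM or with a heart left out. No paired analysis was possible because the mouse numbers are not shared between the groups. Atp5l and Cox4i2, with mean counts of 29.2 and 29.1, are the members with the fewest counts. For Atp5l, counts per kilobase were 2.28% of the level that FPKM gave, and what set its low count was not tested.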
